A study of Mus musculus with 6 samples.

Results

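The transcripts of 10 genes used as markers of mural cells, the pericytes and smooth muscle cells that wrap blood vessels, were followed through neuron-sorted cells of mouse cortex taken around an infarct. The genes are Pdgfrb, Rgs5, Abcc9, Mcam, Anpep, Acta2, Tagln, Myh11, Cnn1 and Des, and rows with exactly these symbols were read from a table of 24419 genes. All 10 were present, and all 10 were among the 14523 genes that averaged 1 CPM or more and so entered the test, where CPM are reads scaled to the total of their library and by a further factor for each library. The animals were male wild-type C57BL/6N mice whose middle cerebral artery had been occluded for 60 min. The 15-HETrE group received intravenous 15-HETrE, a hydroxylated fatty acid, as 600 ng in 150 µL of PBS, given 24, 48 and 72 h after onset, and the vehicle group received the vehicle on the same schedule. Both groups were sampled at day 4 and are represented by 3 RNA-seq libraries each. The peri-infarct tissue was dissociated with pronase, and cells that carried Thy1 and lacked ACSA2, CD31, CD45 and O4 were sorted. That gate is directed by surface antigen against astrocytes, endothelium, leukocytes and those cells of the oligodendrocyte lineage that carry O4. It has no step against mural cells or fibroblasts, and Thy1 itself is also carried by some of these. No age is given by the labels. Nor do they state that a library stands for 1 animal, so p-values here speak of library-to-library spread alone, and part of it may be technical.

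Pericytes line the capillaries of the brain, and smooth muscle cells ring its arterioles. Both are held on the vessel by PDGF-BB from the endothelium acting on the receptor PDGFRβ, and both help to set vessel diameter and the tightness of the blood-brain barrier. Smooth muscle cells contract through a dedicated set of actin, myosin and actin-binding proteins, whose genes are driven by serum response factor (SRF) with its cofactor myocardin. After ischemia, pericytes can constrict capillaries, die or leave the vessel wall, and PDGFRβ-positive stromal cells contribute to the scar.

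The libraries are called 15-HETrE 1, 15-HETrE unnumbered and 15-HETrE combined, and vehicle 1, vehicle 2 and vehicle combined, after the names of their columns, and values are given in that order throughout. They held 5405245 to 22558400 reads in genes. Vehicle combined was the shallowest and held fewer reads than vehicle 1 or vehicle 2 alone, so it is not the sum of those. Column names also carry 3 prefixes, which join 15-HETrE 1 with vehicle 1 and vehicle 2 and join the combined pair, while 15-HETrE unnumbered stands alone. The labels do not explain combined or the prefixes, and differences by prefix set 1 15-HETrE library against 1 or 2 vehicle libraries, with no test. The summed level of 8 neuronal markers was 3233 to 6075 CPM in the 15-HETrE libraries and 1986 to 3298 CPM in the vehicle libraries. Of these markers 7 were higher in 15-HETrE and 1 lower, with a median log2 fold change of 1.00, and 0 passed the test. Rbfox3, Nefl and Slc17a7 were higher in every 15-HETrE library than in any vehicle library, as were 6.84% of all genes tested. Oligodendrocyte markers (8 genes) summed to 16460 to 32179 CPM in 15-HETrE and 15556 to 23467 CPM in vehicle, so the libraries labelled as neurons also held glial transcripts. Astrocyte markers (8 genes) summed to 3710, 1414 and 20749 CPM in 15-HETrE and to 1055, 665 and 7687 CPM in vehicle, highest in the combined library of each group. Fibroblast markers (12 genes) summed to 1246, 2261 and 1293 CPM in 15-HETrE, against 12972, 10505 and 1488 CPM in vehicle. In 15-HETrE 1, 15-HETrE combined and vehicle combined most of the sum is Pdgfra, which oligodendrocyte precursors also make. In 15-HETrE unnumbered, 428 of the 2261 CPM were Pdgfra. Without it, a set formed after the values were seen, the other 11 genes summed to 211, 1833 and 64.9 CPM in 15-HETrE, against 12093, 9500 and 106 CPM in vehicle. Vehicle combined thus lies among the 15-HETrE libraries with and without Pdgfra. Markers of microglia and macrophages summed to 29.5, 58.0 and 90.6 CPM in 15-HETrE and to 24.6, 28.7 and 98.6 CPM in vehicle. These marker levels move with several of the results on mural genes, and their part in those results was not tested.

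Of the 10 genes, Pdgfrb, Rgs5 and Abcc9, which mark pericytes, were lower in every 15-HETrE library than in any vehicle library, with log2 fold changes of -2.08, -1.04 and -1.60. Mcam and Anpep overlapped between the groups, as did every contractile and filament gene, among them Tagln with -1.17, and whether the pericyte and contractile genes differ was not tested. Myh11 and Cnn1 had the higher mean in 15-HETrE. No member passed limma's test over all 14523 genes, in which 0 genes were called higher (0% of those tested) and 0 lower (0%). At an unadjusted p under 0.05 the same 3 members were lower and 0 were higher, beside 760 genes lower (5.23%) and 620 higher (4.27%) in the whole table, and edgeR also called 0 genes and 0 members, with the same 3 members and 703 genes lower (4.84%) and 529 higher (3.64%) at an unadjusted p under 0.05. Fitted to the recovered reads, DESeq2 called 1 member lower, Pdgfrb (adjusted p 0.0180), and 0 higher, beside 130 genes lower (0.895%) and 35 higher (0.241%) in the table, and at an unadjusted p under 0.05 it gave these 3 members and 886 genes lower (6.1%) and 664 higher (4.57%). Weighting each library in limma by how closely it follows the fit called 7 members, all lower, among 1366 genes lower and 1059 higher of 14523 tested. These were Pdgfrb (-3.31), Rgs5 (-1.71), Abcc9 (-2.30), Anpep (-2.96), Acta2 (-1.42), Tagln (-1.86) and Des (-2.02), as log2 fold changes, so with weights 3 contractile and filament genes passed too (adjusted p 0.0160, 0.00297 and 0.0148 for Acta2, Tagln and Des, limma). All 7 weighted values lie nearer the difference between 15-HETrE 1 and the mean of vehicle 1 and vehicle 2 than that of the combined pair. For Acta2 these differences were -1.72 and 1.30, and for Des -2.44 and 2.13. How much each library weighed is not reported here. Without vehicle combined, limma called 108 genes lower and 2 higher, and 0 members. Groups did not overlap, on the lower side, for 3 of 10 members and for 1209 genes (8.32%), and on the higher side for 0 members and 993 genes (6.84%). Of the 10 members 8 had a log2 fold change below 0, against 7111 of all genes tested (49%), 4 had one of -1 or below, against 1316 genes (9.06%), and the median of the members was -0.55, against 0.02 for all genes tested. As the members were chosen with earlier results of these data known, these counts describe the list and do not test it.

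**Figure D1:**
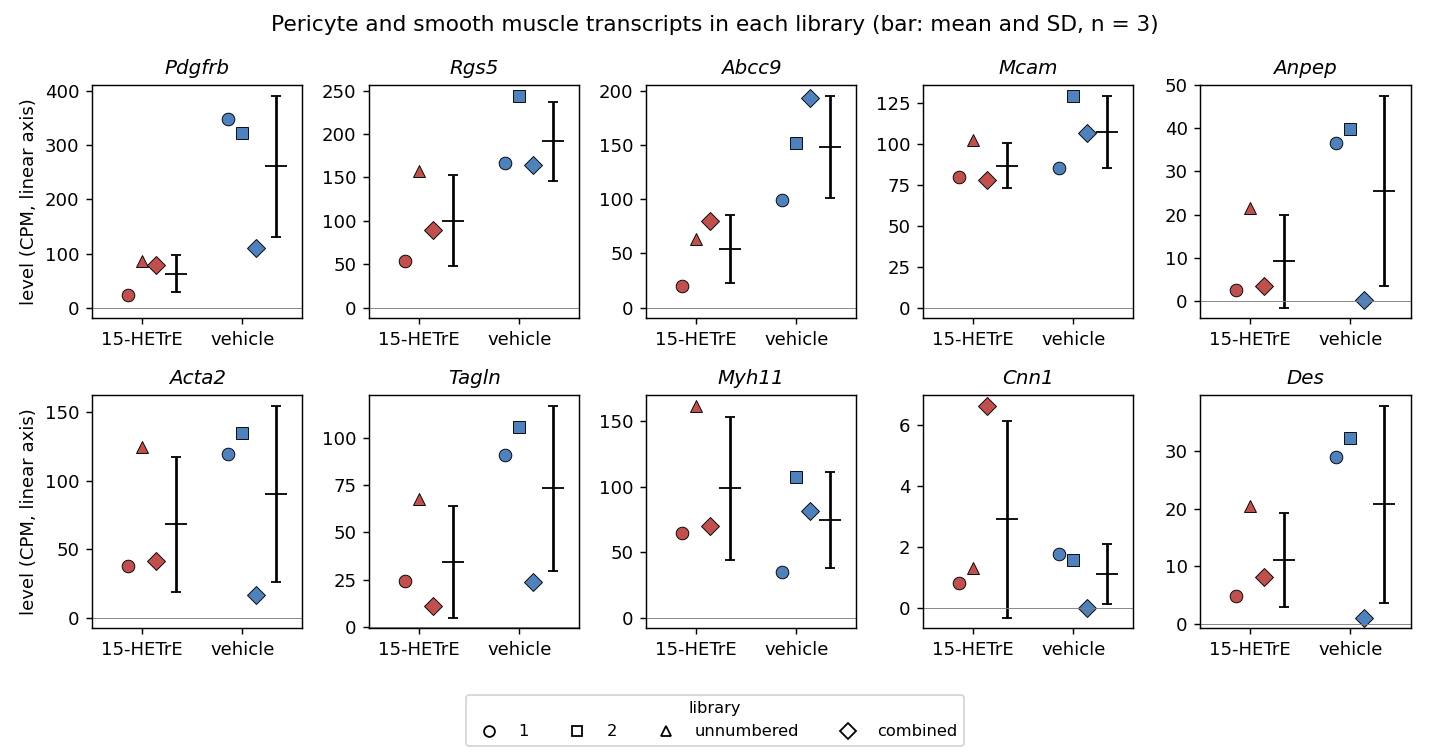
Level of each gene in CPM on a linear axis, with 15-HETrE libraries in red and vehicle libraries in blue, the symbol giving the library and the bar the mean and SD of 3 libraries. In the top row Pdgfrb, Rgs5 and Abcc9 show no overlap between the groups, while in the bottom row the vehicle combined library (diamond) is the lowest vehicle library for Acta2, Tagln, Cnn1 and Des.

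Pdgfrb encodes the PDGF receptor beta, the receptor through which pericytes are recruited, and it is also made by fibroblasts (chromosome 18, 61045150 to 61085061, GRCm38). Its levels were 23.2, 86.4 and 78.4 CPM in 15-HETrE 1, unnumbered and combined, against 349, 324 and 111 CPM in the vehicle libraries. Every 15-HETrE library lay below every vehicle library, and the closest were 15-HETrE unnumbered and vehicle combined. The groups averaged 62.7 ± 34.4 CPM in 15-HETrE and 261 ± 131 CPM in vehicle (SD, n = 3 each), or -2.08 as a log2 fold change (SE 0.55, unadjusted p 0.00341, adjusted p 0.394, limma). At least 510 reads stood behind each of these values, so counting error is small beside the spread between libraries. Among the libraries of the first prefix the difference was -3.80, where the 11 fibroblast markers other than Pdgfra differed by -4.33 on average (log2 scale). Between the combined libraries it was -0.49, where those markers differed by -0.05. In bulk RNA, fewer cells of a type and less RNA per cell cannot be told apart, here and for every gene below.

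Rgs5 encodes a regulator of G protein signalling that is among the most used pericyte markers (chromosome 1, 169655501 to 169695813). It stood at 53.4, 157 and 89.9 CPM in the 15-HETrE libraries, against 167, 244 and 165 CPM in the vehicle libraries. The groups did not overlap, though 15-HETrE unnumbered lay just below vehicle 1 and vehicle combined. Its log2 fold change was -1.04 (SE 0.37, unadjusted p 0.0188, adjusted p 0.461, limma). Unlike Pdgfrb, it was even across the vehicle group, where the 3 libraries spanned 0.57 on the log2 scale. In the first prefix the difference was -1.90, and in the combined pair -0.87. Without 15-HETrE 1 the log2 fold change was -0.66 (unadjusted p 0.0902, limma).

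Abcc9 encodes SUR2, the regulatory subunit of the ATP-sensitive potassium channel of vascular mural cells (chromosome 6, 142587862 to 142702315). Levels were 19.7, 63.2 and 79.9 CPM in the 15-HETrE libraries, against 99.1, 152 and 194 CPM in the vehicle libraries. Here vehicle combined was the highest of all 6 libraries, whereas its fibroblast sum lay among those of the 15-HETrE libraries. The log2 fold change was -1.60 (SE 0.48, unadjusted p 0.00749, adjusted p 0.422, limma). It came to -2.58 in the first prefix and to -1.27 in the combined pair, and without 15-HETrE 1 it was -0.999. The pore of this channel is encoded by Kcnj8, a gene of the further pericyte list that is named here for its pairing with Abcc9, after its values were seen. Kcnj8 stood at 3.64, 6.45 and 17.2 CPM in 15-HETrE, against 19.0, 19.8 and 48.2 CPM in vehicle, and its groups did not overlap either (log2 fold change -1.67, adjusted p 0.465, limma). Within a library Abcc9 had 4.65 to 9.81 times the level of Kcnj8 in 15-HETrE and 4.02 to 7.70 times in vehicle, a ratio of CPM that is not corrected for length. The ratios of the groups overlapped.

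Mcam and Anpep encode the surface proteins MCAM and aminopeptidase N, which are used elsewhere to sort pericytes and were not part of this gate. Mcam, an adhesion molecule shared by pericytes, smooth muscle and endothelium (chromosome 9, 44134469 to 44142727), had the smallest range over libraries of the 10 genes. It had 80.1, 103 and 77.9 CPM in 15-HETrE, against 85.5, 130 and 107 CPM in vehicle. Its highest library was 1.67 times its lowest, and the groups overlapped (log2 fold change -0.29, SE 0.26, adjusted p 0.743, limma). Anpep, which fibroblasts also make (chromosome 7, 79821803 to 79861059), was the most uneven, with 2.50, 21.5 and 3.38 CPM in 15-HETrE, against 36.7, 39.8 and 0.180 CPM in vehicle. A single read stood behind the value in vehicle combined, beside 785 and 885 reads in vehicle 1 and vehicle 2. The groups overlapped through that library, and the sign differed, -3.48 for the first prefix against 1.89 for the combined pair (log2 fold change over all libraries -0.80, SE 1.28, adjusted p 0.862, limma). Without vehicle 1 the log2 fold change was 0.016, and without vehicle 2 it was 0.073.

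Among the contractile genes, Acta2 encodes smooth muscle α-actin, the thin-filament actin of the contractile apparatus and a marker of myofibroblasts as well (chromosome 19, 34241090 to 34255590). It had 37.9, 125 and 41.6 CPM in 15-HETrE, against 119, 135 and 16.4 CPM in vehicle. All 3 15-HETrE libraries lay inside the range of the vehicle libraries, of which vehicle combined was the lowest of all 6. Over all libraries the log2 fold change was -0.15 (SE 0.74, adjusted p 0.959, limma), beside -1.72 in the first prefix and 1.30 in the combined pair. The sign turned without 15-HETrE 1 (0.16), without 15-HETrE combined (0.09), without vehicle 1 (0.29) and without vehicle 2 (0.38). The transcripts of Acta2 share few stretches with those of other actins: of 2146 stretches of 50 bases in GENCODE M21, 0 occur in Actg2, Acta1, Actc1 or Actb and 7 in Actg1.

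Tagln encodes transgelin, also called SM22α, an actin-binding protein of the calponin family (chromosome 9, 45929619 to 45936058). It stood at 24.3, 67.6 and 11.2 CPM in 15-HETrE, against 90.9, 105 and 23.6 CPM in vehicle. Vehicle combined lay below 15-HETrE 1 and unnumbered, so the groups overlapped (log2 fold change -1.17, SE 0.68, adjusted p 0.618, limma). It was the contractile gene that kept its sign under both names, with -1.97 in the first prefix and -1.01 in the combined pair. Its size rested on single libraries, at -0.58 without 15-HETrE combined, -1.82 without 15-HETrE unnumbered and -1.84 without vehicle combined. Tagln overlaps Pcsk7 on the opposite strand, and the sources used here do not say whether counting used strand, so reads of the 2 genes may not be separated. Abcc9, Mcam and Des likewise overlap another annotated gene on the other strand. Anpep overlaps one on its own strand, where counting by strand would not separate the reads.

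Myh11 encodes the smooth muscle myosin heavy chain, the marker held to be most specific for smooth muscle (chromosome 16, 14194535 to 14291372). It had 64.8, 162 and 70.3 CPM in 15-HETrE, against 34.7, 108 and 81.8 CPM in vehicle. Vehicle 1 was the lowest library and 15-HETrE unnumbered the highest, and the groups overlapped (log2 fold change 0.42, SE 0.47, adjusted p 0.794, limma). By name prefix the difference was 0.08 in the first and -0.22 in the combined pair. Without vehicle 1 the log2 fold change was -0.05. Myh11 and Acta2 belong to the same apparatus but did not keep to a fixed ratio. The ratio of Myh11 to Acta2 in CPM was 1.71, 1.30 and 1.69 in the 15-HETrE libraries, against 0.290, 0.797 and 5 in the vehicle libraries. The 15-HETrE ratios thus lay close together, between those of the vehicle libraries.

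Cnn1, calponin 1, binds actin and slows the smooth muscle myosin (chromosome 9, 22099216 to 22109630). Its transcripts were near the limit of detection, with 18, 22 and 49 reads (0.819, 1.31 and 6.62 CPM) in 15-HETrE, against 38, 35 and 0 reads (1.78, 1.57 and 0 CPM) in vehicle. A count of 0 in vehicle combined allows up to 0.540 CPM. The sign of its difference, here and in the counts over members, therefore rests on few reads (adjusted p 0.797, limma). Des encodes desmin, the muscle intermediate filament that pericytes also carry (chromosome 1, 75360329 to 75368579). It had 4.83, 20.4 and 8.11 CPM in 15-HETrE, against 28.9, 32.3 and 1.08 CPM in vehicle, where the last value rested on 6 reads. As with Acta2, vehicle combined was the lowest library and the groups overlapped (log2 fold change -0.29, SE 1.01, adjusted p 0.946, limma). It differed by -2.44 in the first prefix and by 2.13 in the combined pair. Without 15-HETrE 1, vehicle 1 or vehicle 2 its log2 fold change was 0.13, 0.33 or 0.40.

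**Figure D2:**
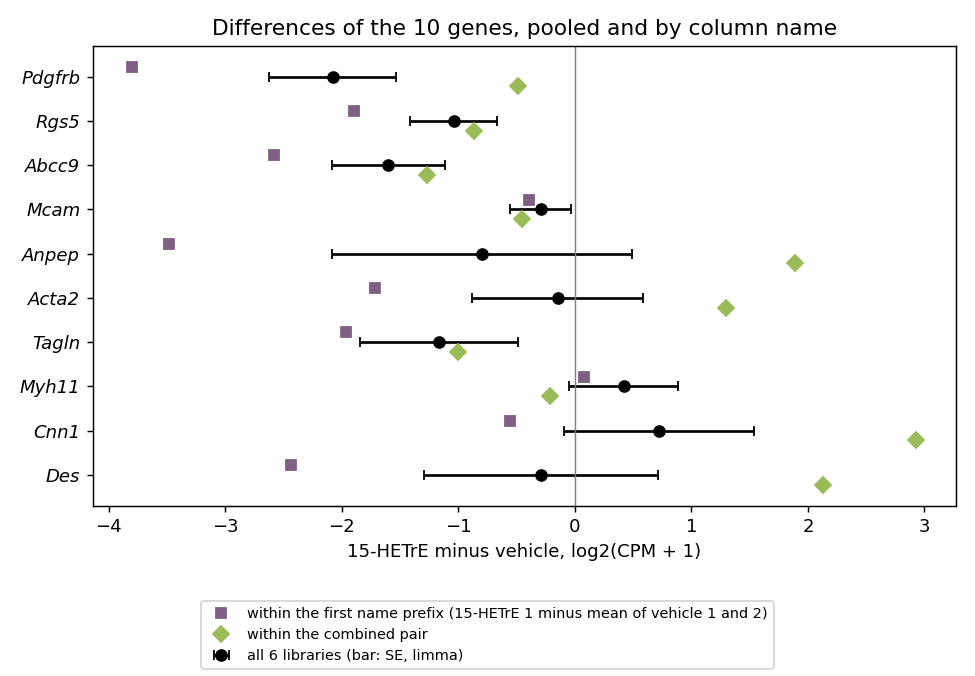
Difference of each gene, 15-HETrE minus vehicle, on the log2(CPM + 1) scale, for all 6 libraries (black circle, bar SE from limma), for libraries of the first name prefix (square) and for the combined pair (diamond). Pdgfrb, Rgs5, Abcc9, Mcam and Tagln lie below 0 in all 3 values, whereas Acta2, Anpep, Cnn1 and Des lie below 0 in the first prefix and above 0 in the combined pair.

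Counted by name, 9 of 10 members were lower in 15-HETrE in the first prefix, and in the combined pair 6 of 10 were lower and 4 higher. In both at once, 5 members were lower. Summed over the 5 pericyte and surface genes, levels were 179, 431 and 329 CPM in 15-HETrE, against 737, 890 and 576 CPM in vehicle, without overlap. Over the 5 contractile and filament genes they were 133, 376 and 138 CPM in 15-HETrE, against 276, 382 and 123 CPM in vehicle, so that the 15-HETrE sums lay inside the range of the vehicle sums. Most members shared their extreme libraries, though not all. Of the 15-HETrE libraries, unnumbered was the highest for 8 of 10 members and 15-HETrE 1 the lowest for 8 of 10, and of the vehicle libraries, vehicle combined was the lowest for 7 of 10 and vehicle 2 the highest for 7 of 10. Of the vehicle libraries, vehicle combined was the highest for Abcc9, and vehicle 1 the lowest for Abcc9, Myh11 and Mcam.

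Levels between genes can be set side by side per kilobase of exon. In 15-HETrE the mean levels ran Acta2 31.0, Mcam 25.9, Rgs5 22.045, Tagln 17.3, Myh11 13.0, Pdgfrb 11.4 and Abcc9 6.48 CPM per kb. In vehicle they ran Pdgfrb 47.7, Rgs5 42.2, Acta2 41.1, Tagln 36.9, Mcam 32.1, Abcc9 17.7 and Myh11 9.83 CPM per kb, so Pdgfrb stood first in vehicle and sixth in 15-HETrE. As a mean over all 6 libraries, Acta2 was the highest at 36.1 CPM per kb, followed by Rgs5 (32.1), Pdgfrb (29.6), Mcam (28.996) and Tagln (27.1). These 5 do not differ beyond their spread over libraries, since Acta2 alone ranged over the libraries between 7.45 and 61.5 CPM per kb. Abcc9 (12.1) and Myh11 (11.4) came next and lay within each other's range, 2.35 to 23.1 for Abcc9 and 4.56 to 21.3 for Myh11. Des (4.25), Anpep (4.19) and Cnn1 (0.737) were the lowest, as they were within each group, with Cnn1 never above 2.42 CPM per kb.

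The profiles of the members over the 6 libraries were compared pair by pair, and no sets were derived. Likeness was measured as the root mean square difference of log2 values, each gene centred on its own mean, so that 0 would be an identical profile. Over the 45 pairs of members it ran from 0.39 to 2.10, with a median of 1.20. The closest pair was Acta2 and Des (0.39), and Rgs5 lay close to Mcam (0.52) and Abcc9 (0.58). Myh11 was closest to Mcam (0.56), and not to the other contractile genes. Profiles were not scaled to equal spread, so the measure joins the size of a gene's changes with their shape. Mcam varied least of the members, so a small difference from it can mean little variation and need not mean a shared pattern. Anpep and Abcc9 were the most unlike (2.10). Among all genes that averaged 5 CPM or more, those most like Pdgfrb were Nes (0.19), Sparc (0.26), Runx1 (0.27) and Zic2 (0.28), where the median gene stood at 1.40. Nes, which encodes nestin, had 11.97, 34.8 and 28.5 CPM in 15-HETrE, against 139, 137 and 56.8 CPM in vehicle. Those most like Acta2 were Rbpms (0.16), Fam210b (0.23), Uck2 (0.24) and Stat6 (0.28), against a median of 1.17. Rbpms had 7.38, 30.1 and 8.92 CPM in 15-HETrE, against 25.0, 33.3 and 2.16 CPM in vehicle. With 6 libraries and 11491 genes to choose from, close profiles are easily found, and these are given as a description.

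**Figure D3:**
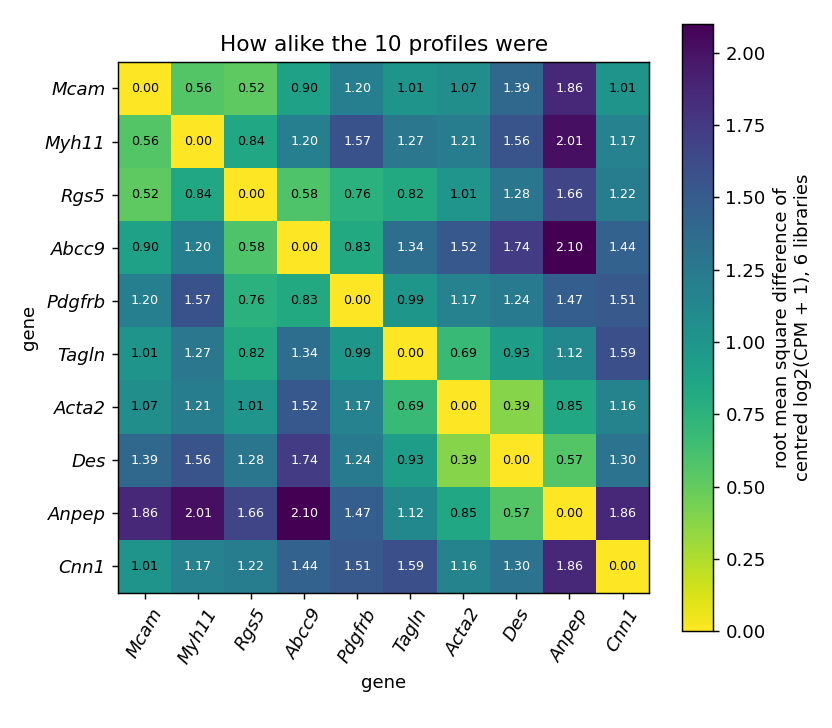
Root mean square difference between the centred log2(CPM + 1) profiles of each pair of genes over the 6 libraries, with darker cells for less alike pairs. Acta2 and Des (0.39) are the closest pair, and Anpep with Abcc9 (2.10) the most distant.

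The start regions of the genes were searched for 2 elements known from muscle and mural genes. RefSeq windows (GRCm38.p6) were found for 7 of the 10 symbols, and the 250 bases before the start site were searched for the CArG box, the A/T-rich element bound by SRF, and for TGGGAA, the core bound by RBPJ, which carries Notch signals in mural cells, each on both strands. Pdgfrb, Tagln and Myh11 had no window and were not searched, so the counts say nothing of them. A strict CArG box was in 0 of the 7 windows and in 482 of 32851 windows of all genes (1.47%). With at most 1 G or C allowed in its core, it was in the Acta2 window, with 2 copies, and in 8.59% of all windows. TGGGAA or its complement was in the Abcc9 and Acta2 windows and in 21.6% of all windows, and the copy in Acta2 overlaps its second CArG-like element. A match is a run of letters and not a measured site. The stretches around both Acta2 elements (chr19:34255438-34255467 and chr19:34255388-34255417, minus strand, 84 and 34 bases upstream of the RefSeq start, inside an exon annotated by GENCODE) are printed with the element in capitals. The Abcc9 stretch (chr6:142702316-142702524, minus strand) has TGGGAA in capitals, while Rgs5 (chr1:169655251-169655500) and Des (chr1:75360042-75360291), both on the plus strand, hold neither motif and are shown for contrast, Rgs5 as a pericyte gene without overlap between groups and Des as the member whose profile was closest to Acta2.
Acta2 first element: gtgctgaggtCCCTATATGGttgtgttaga
Acta2 second element: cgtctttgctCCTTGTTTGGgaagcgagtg
Abcc9: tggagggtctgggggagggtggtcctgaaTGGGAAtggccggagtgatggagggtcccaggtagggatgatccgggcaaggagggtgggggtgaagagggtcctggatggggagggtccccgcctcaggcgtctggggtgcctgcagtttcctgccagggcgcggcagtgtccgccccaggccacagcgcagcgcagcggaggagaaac
Rgs5: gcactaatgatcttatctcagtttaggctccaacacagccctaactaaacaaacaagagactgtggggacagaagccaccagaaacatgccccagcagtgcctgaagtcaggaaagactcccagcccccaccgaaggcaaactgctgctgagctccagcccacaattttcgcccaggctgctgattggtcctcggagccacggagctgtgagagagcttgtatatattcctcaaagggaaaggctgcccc
Des: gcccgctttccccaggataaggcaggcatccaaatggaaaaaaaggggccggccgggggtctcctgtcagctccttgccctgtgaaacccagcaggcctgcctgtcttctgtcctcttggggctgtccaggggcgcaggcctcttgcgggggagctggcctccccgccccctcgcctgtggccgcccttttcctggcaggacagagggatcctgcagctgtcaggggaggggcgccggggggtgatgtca

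Other genes listed as markers of the same cells were read from lists that are given whole. Of 20 further pericyte genes, 20 were tested, 18 were lower and 2 higher in 15-HETrE, and 0 passed limma's test. Their median log2 fold change was -1.08, against 0.02 for all genes, and 6 were lower without overlap (8.32% of all genes were) and 1 higher (6.84%). Notch3, the Notch receptor of mural cells, had 29.6, 67.7 and 66.4 CPM in 15-HETrE, against 86.1, 145 and 103 CPM in vehicle (log2 fold change -1.07, adjusted p 0.460, limma). Those levels did not overlap. Ifitm1, an interferon-induced membrane protein, had 1.18, 6.39 and 2.70 CPM in 15-HETrE, against 22.6, 13.9 and 14.4 CPM in vehicle (log2 fold change -2.17, adjusted p 0.400, limma), also without overlap. Tbx18, a transcription factor of mural cells, had 3.82, 13.9 and 9.73 CPM in 15-HETrE, against 61.6, 70.3 and 11.9 CPM in vehicle, and overlapped through vehicle combined (log2 fold change -2.07, adjusted p 0.457, limma). The single gene higher without overlap was Rgs4, with 335, 209 and 210 CPM in 15-HETrE, against 204, 140 and 157 CPM in vehicle. It is a regulator of G protein signalling that cortical neurons also express. Other genes of this list, lower ones included, may likewise come from further cell types, which was not tested. By name, the median of the list was -1.81 in the first prefix and -0.74 in the combined pair.

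Of 20 further contractile genes of smooth muscle, 19 were tested, 14 were lower and 5 higher, and 0 passed. Among these 19 genes 0 separated the groups, where 8.32% of all genes did so on the lower side and 6.84% on the higher. Whether 0 of 19 differs from those shares was not tested. The median of the list was -0.72, beside -0.64 in the first prefix and 0.02 in the combined pair. Cald1, caldesmon, which binds actin and tropomyosin, had 73.8, 157 and 65.4 CPM in 15-HETrE, against 510, 689 and 128 CPM in vehicle (log2 fold change -1.95, adjusted p 0.403, limma). Vehicle combined lay below 15-HETrE unnumbered. Smtn, smoothelin, had 17.8, 69.1 and 22.2 CPM in 15-HETrE, against 55.4, 78.8 and 61.0 CPM in vehicle (log2 fold change -1.06, adjusted p 0.520, limma), and Tpm1, a tropomyosin, had a log2 fold change of -0.96 (adjusted p 0.548, limma). Both overlapped, Smtn through 15-HETrE unnumbered and Tpm1 through vehicle combined, and Cald1 and Tpm1 are made by many cell types.

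**Figure D4:**
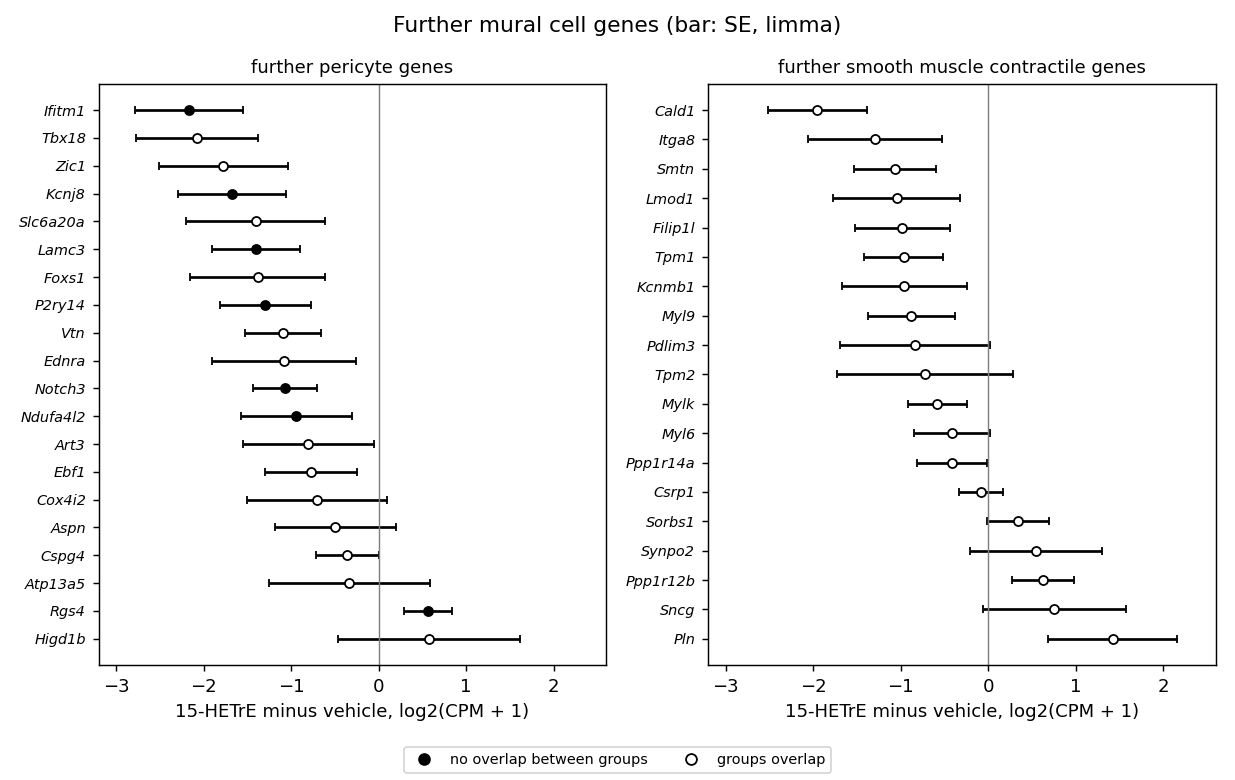
Log2 fold change of each tested gene of both further lists, 15-HETrE minus vehicle on the log2(CPM + 1) scale, with bars for the SE from limma and filled points where the groups did not overlap. On the left 18 of 20 pericyte genes lie below 0, and on the right 14 of 19 contractile genes do, none of them filled.

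The calponin and transgelin relatives that are not restricted to muscle were also read, together with the other actins. Of 9 genes 6 were tested, 5 were lower and 1 higher, and 0 passed. Tagln2, a transgelin of blood and stromal cells, had 17.8, 37.9 and 19.3 CPM in 15-HETrE, against 94.5, 130 and 54.5 CPM in vehicle. The groups did not overlap (log2 fold change -1.85, SE 0.41, unadjusted p 0.00108, adjusted p 0.334, limma). Cnn2 had 5.69, 15.7 and 0 CPM in 15-HETrE, against 72.9, 63.1 and 9.71 CPM in vehicle, and overlapped through vehicle combined (log2 fold change -2.94, SE 1.04, unadjusted p 0.0174, adjusted p 0.460, limma). The neuronal Tagln3 and the widespread Cnn3 had log2 fold changes of 0.50 and -0.59, and the cytoplasmic actins Actb and Actg1 had -0.51 and -0.53, all 4 with overlap. Actg2, Acta1 and Actc1, the other muscle actins, stayed at or below 1.82 CPM in every library and did not enter the test.

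Of 7 tested genes for SRF, its cofactors and competing factors, 4 were lower and 3 higher, and 0 passed limma's test. Srf, the factor itself, had 36.0, 55.0 and 70.1 CPM in 15-HETrE, against 37.2, 59.8 and 51.8 CPM in vehicle (log2 fold change 0.09, adjusted p 0.949, limma). Both groups covered nearly the same range. Myocd, its smooth muscle cofactor, was low, at 1.78, 5.85 and 0.946 CPM in 15-HETrE, against 0.888, 6.93 and 4.50 CPM in vehicle. The related cofactors Mkl1 and Mkl2 had log2 fold changes of 0.06 and 0.45, and the competing factors Klf4, Elk1 and Elk4 had -0.60, -0.05 and -0.61. Of these 7 genes Elk4 alone separated the groups, with 56.8, 46.4 and 59.2 CPM in 15-HETrE, against 76.3, 90.0 and 82.2 CPM in vehicle (adjusted p 0.507, limma). Of all genes tested, 8.32% were lower without overlap.

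Of 5 PDGF genes besides Pdgfrb, 3 were lower and 2 higher, and 0 passed. Pdgfb, which encodes a ligand of PDGFRβ, was low in both groups, at 6.87, 3.22 and 4.33 CPM in 15-HETrE, against 3.09, 2.02 and 7.55 CPM in vehicle. Its groups overlapped (log2 fold change 0.25, adjusted p 0.926, limma), and so did those of Pdgfa (0.44), Pdgfc (-2.04) and Pdgfd (-0.86). Pdgfc was uneven inside the 15-HETrE group, with 16.2, 1.55 and 0.541 CPM, against 13.7, 14.6 and 19.6 CPM in vehicle. Pdgfra, the alpha receptor of oligodendrocyte precursors and fibroblasts, had 1035, 428 and 1228 CPM in 15-HETrE, against 879, 1006 and 1382 CPM in vehicle (log2 fold change -0.39, adjusted p 0.781, limma). It overlapped between the groups and did not follow Pdgfrb, whose vehicle 1 and vehicle 2 levels were the highest.

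Markers of neighbouring vascular and stromal cells stand beside these results. Endothelial markers (12 genes) summed to 64.8, 138 and 105 CPM in 15-HETrE, against 192, 258 and 131 CPM in vehicle, with 8 of the 12 lower, 4 higher and 0 called, and 4 of the 12 were at 0 in at least 1 library. Cldn5, a marker of brain endothelium and 1 of the 4 higher genes, was at 2.73, 4.42 and 1.08 CPM in 15-HETrE and at 1.54, 2.56 and 0.180 CPM in vehicle, a low level throughout. The sum rests largely on Cdh5 in vehicle 1 and vehicle 2, at 116 and 161 CPM. Slco1a4, also higher, had 7.01, 15.9 and 27.4 CPM in 15-HETrE, against 2.80, 6.12 and 7.55 CPM in vehicle. Tek, a lower one, had 4.32, 0 and 3.24 CPM in 15-HETrE, against 3.04, 4.32 and 14.4 CPM in vehicle. Col1a2, a fibroblast collagen, had 19.2, 315 and 4.33 CPM in 15-HETrE, against 2307, 1482 and 31.8 CPM in vehicle. The ratio of Pdgfrb to Col1a2, in CPM and not corrected for length, was 1.21, 0.274 and 18.1 in 15-HETrE, against 0.151, 0.218 and 3.47 in vehicle, highest in the combined library of each group. Of the 12 fibroblast markers 0 passed and 11 had a log2 fold change below 0, with a median of -2.10, beside -4.37 in the first prefix and -0.24 in the combined pair, and 2 of the 12 were at 0 in at least 1 library. The 1 higher marker, Dpt, had 0.455, 2.92 and 3.92 CPM in 15-HETrE, against 0, 0 and 0 CPM in vehicle. Dpt alone of the 12 separated the groups, on the higher side, where 6.84% of all genes did.

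**Figure D5:**
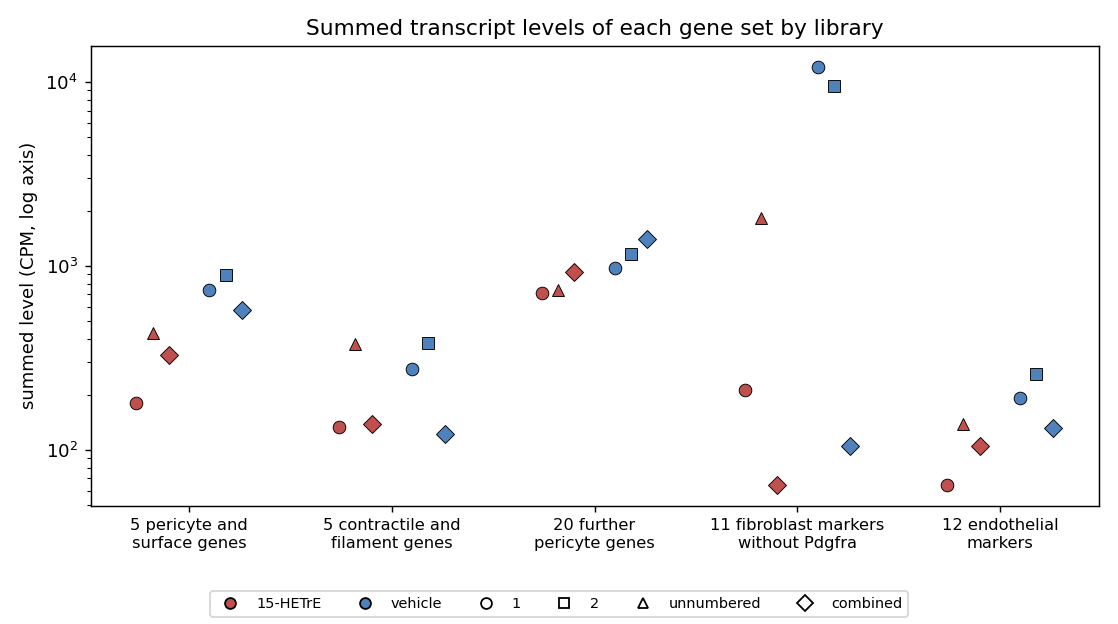
Summed CPM of each gene set on a log axis, with 15-HETrE libraries in red and vehicle libraries in blue and the symbol giving the library. The 5 pericyte and surface genes do not overlap between groups, the 5 contractile genes do, and the 11 fibroblast markers other than Pdgfra stand at 12093 and 9500 CPM in vehicle 1 and vehicle 2, above the other 4 libraries.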

How the data were processed

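The deposited table holds a signal per gene and library that the authors scaled as CPM, together with a factor per library. The submitters' processing notes name Trimmomatic, HISAT2, featureCounts, edgeR and mm10. The annotation and the tools' versions and settings are in none of the sources used here. The Ovation SoLo kit served for library preparation, per the labels' protocols. Every value was a whole multiple of the value of 1 read (tolerance 1e-04 reads), so reads were recovered, 5405245 to 22558400 per library. A count of 0 allows up to 3 reads, and floors cover counting error only. The number of unused columns was 0. The design assumed CPM, and its test was kept for the scaled values.

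Genes averaging 1 CPM or more (14523) were taken as log2(CPM + 1), which understates the change of low genes, and entered limma 3.58.1 (R 4.3.3) with group as the sole term, a variance trend and two-sided Benjamini-Hochberg adjustment at 0.05. Positions and exon lengths are from GENCODE M21. Besides the 10 members, the 3 genes of each list with the smallest p, the PDGF and SRF families, the actins and calponins and the 4 genes most like Pdgfrb and Acta2 could be named. Kcnj8, Rgs4 and Cldn5 lie outside this rule and were chosen after their values were seen. Members and lists were chosen with earlier results of these data known. Alternatives covered pseudocount, filter, scaling, library weights, robust trend, left-out libraries, the name prefix, and edgeR 4.0.16 and DESeq2 1.42.0 on recovered reads. The fits were tested on simulated counts.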

Additional observations from a re-analysis of the deposited data

How the results depend on the processing

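With library weights, limma called 1059 genes higher and 1366 lower of 14523 tested, and 7 of the 10 members. The median log2 fold change of the members was then -1.79 against -0.55. DESeq2 called 35 genes higher, 130 lower and 1 member, Pdgfrb (adjusted p 0.0180). A fit with the prefix as batch called 1 gene higher and 7 lower, and one without both combined libraries called 3 higher and 201 lower, each with 0 members. Leaving out 1 library at a time gave 0 to 2 genes higher, 0 to 108 lower and 0 members, and the median of the members ran from -1.26 to -0.038. The 2 and 108 came without vehicle combined, where the smallest adjusted p of a member was 0.0619 (limma). In those fits Acta2 ran from -1.11 to 0.38, Des from -1.60 to 0.40, Anpep from -2.48 to 0.073 and Myh11 from -0.052 to 0.75. Signs also turned for Myh11 (-0.028) and Cnn1 (-0.22) with library weights, for Myh11 with the prefix term (-0.047) and for Cnn1 without both combined libraries (-0.38), and the cause was not tested. Pdgfrb (-2.61 to -1.49), Rgs5 (-1.43 to -0.66), Abcc9 (-1.98 to -0.999), Tagln (-1.84 to -0.58) and Mcam (-0.45 to -0.15) kept their sign there and in every other alternative run. Without Pdgfra, a choice made after the data were seen, the fibroblast markers differed by -2.07 on average against -1.93. Cnn1 did not enter the fit with a filter at 5 CPM. No paired analysis was possible because the columns of the groups share only the replicate number 1, and the prefix term above is a batch term that pairs no samples by number. The shallow combined libraries limit Cnn1, Anpep and Des, with 0, 1 and 6 reads in vehicle combined.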
